A study of Homo sapiens with 16 samples.

Results

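The 42 genes described here encode inflammatory cytokines, chemokines, adhesion molecules, cytokine receptors and the subunits, inhibitors and feedback genes of the NF-kB pathway. They were listed by symbol, with earlier results of these data known, and each was found in the GENCODE 44 annotation of the human genome (hg38). Genes of the CXCL cluster and the CCL2-CCL7 pair share regions, so each of these was also counted as 1 locus, which gave 36 loci. Regions were assigned to a gene when any base lay within 2500 bp, or within 100 kb, of the 5′ end of its GENCODE gene model. By the wider window, 53 of the 7130 listed regions lay near these genes.

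The regions come from LX-2, an immortalised line of human hepatic stellate cells (the liver cells that turn into myofibroblasts). Cells received vehicle (DMSO) or 50 µM OSMI-1, an inhibitor of the O-GlcNAc transferase, for 24 h, and acetylation of histone H3 at lysine 27 (H3K27ac), a mark of active promoters and enhancers, was measured by chromatin immunoprecipitation and sequencing in 4 libraries per arm. The study deposited 2 lists of regions called as different between the arms: 3507 regions that lost and 3623 regions that gained H3K27ac with OSMI-1. The lists give positions alone, with no read count, fold change, p-value or value per library, so depth and replicate spread are unknown here and the comparisons below are counts of listed regions without a test. In bulk chromatin, a change in the share of cells with the mark and a change of the mark per cell cannot be told apart, and the cell type could not be checked against marker genes because regions that did not change are not listed.

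NF-kB is a family of dimeric transcription factors held in the cytoplasm by inhibitors of the IkB family. Signals from tumour necrosis factor, interleukin-1 or microbial products activate a kinase that leads to destruction of the inhibitors, after which the dimers enter the nucleus and switch on cytokine and chemokine genes together with their own inhibitors. In hepatic stellate cells the pathway is known for the release of interleukin-6 and of chemokines, which draw immune cells to injured liver.

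Around the promoters, H3K27ac was lost at CCL2, IL11 and NFKBIE and gained at CXCL2 and CXCL8. A lost region lay within 2500 bp of the 5′ end of 3 of the 42 genes (7.14%), against 2.02% of all 20046 protein-coding genes. A gained region lay that close to 2 of the 42 (4.76%), near the 6.39% of all protein-coding genes. Both counts are small. Within 1000 bp, where the share of all protein-coding genes was not counted, a lost region lay near 2 genes, without NFKBIE. Within 100 kb, 11 of the 42 genes had a lost region (26.2%, against 20.4% of all protein-coding genes) and 23 had a gained region (54.8%, against 29.5%). Counted as loci, 10 of 36 had a lost region (27.8%) and 19 of 36 a gained region (52.8%).

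**Figure D1:**
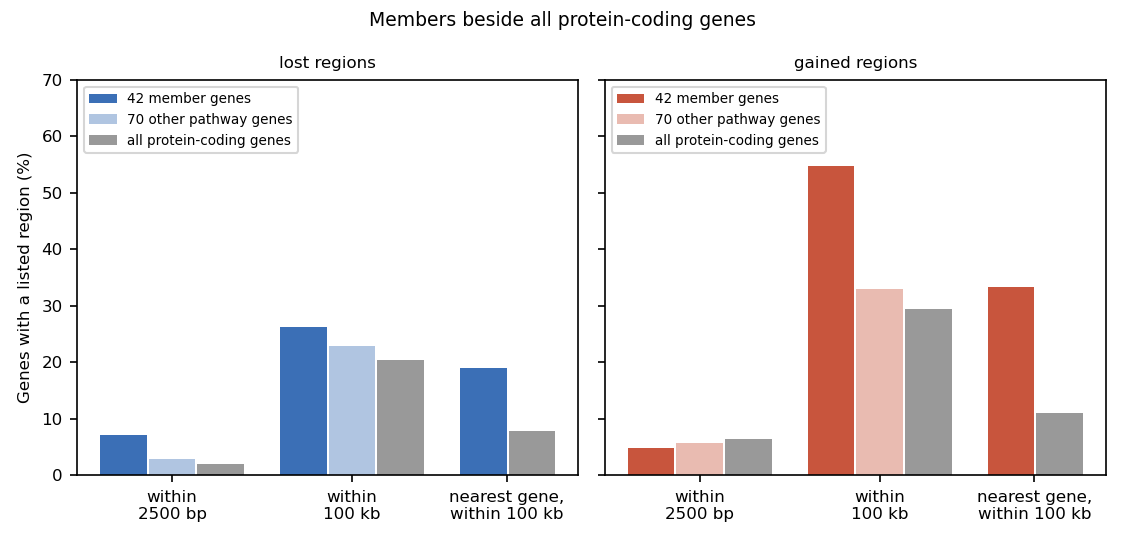
Bars show the percentage of genes with a lost (left) or gained (right) region within 2500 bp, within 100 kb, or as the gene with the nearest 5′ end within 100 kb, for the 42 member genes, 70 other pathway genes (first windows) and 20046 protein-coding genes. The gained share within 100 kb is 54.8% for the members and 29.5% for all protein-coding genes, while the gained share within 2500 bp is 4.76% against 6.39%.

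The promoters at the listed regions are shown first. The 250 bases upstream of the RefSeq transcription start (GRCh38.p14, the same coordinates as hg38) were searched on both strands for the NF-kB consensus. The promoter table held 33 of the 42 genes, and CCL2, NFKBIE, LIF, IL15, IL18, CSF1, CSF3, CX3CL1 and RELB had no entry. The upstream windows of CXCL2 and CXCL8 overlapped a gained region and that of IL11 a lost region. They are printed below on the gene's strand, 5′ to 3′, cut where a GENCODE transcript begins, with NF-kB matches (CXCL2) and matches to the AP-1 consensus TGANTCA (CXCL8 and IL11) in capitals. The stretches of CXCL2 and IL11 lie inside their regions, and that of CXCL8 ends just upstream of its region.
CXCL2, chr4:74099197-74099445, minus strand: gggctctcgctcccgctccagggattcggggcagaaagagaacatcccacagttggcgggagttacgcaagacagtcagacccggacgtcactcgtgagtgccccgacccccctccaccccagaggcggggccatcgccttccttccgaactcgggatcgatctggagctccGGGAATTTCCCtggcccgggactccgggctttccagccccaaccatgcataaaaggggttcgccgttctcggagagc
CXCL8, chr4:73740319-73740518, plus strand: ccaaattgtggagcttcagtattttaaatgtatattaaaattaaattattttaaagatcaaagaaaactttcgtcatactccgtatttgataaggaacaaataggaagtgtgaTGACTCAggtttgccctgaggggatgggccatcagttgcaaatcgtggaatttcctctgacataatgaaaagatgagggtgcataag
IL11, chr19:55370464-55370713, minus strand: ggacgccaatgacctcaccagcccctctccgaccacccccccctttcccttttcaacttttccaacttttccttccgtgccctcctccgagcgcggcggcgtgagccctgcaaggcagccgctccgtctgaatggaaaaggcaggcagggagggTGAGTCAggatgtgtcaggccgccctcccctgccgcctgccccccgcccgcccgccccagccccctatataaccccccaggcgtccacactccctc

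An NF-kB match was present in 15 of the 33 member promoters (45.5%), against 5.83% of 21613 protein-coding promoters of the same length. The genes were picked for their place in this pathway, and many are textbook NF-kB targets. Of these 15 promoters, the match lay in a listed region at 1, CXCL2. Listed regions overlapped 3 of the 33 upstream windows, and CCL2 and NFKBIE were not among the 33. In the CXCL cluster, 5 promoters held the same 11 letters. They are shown with their flanks on the gene's strand, and the site of CXCL2 lies in a gained region while those of CXCL1, CXCL3, CXCL5 and CXCL6 lie in none.
CXCL1, chr4:73869305-73869333: tggaactccGGGAATTTCCCtggcccggg
CXCL2, chr4:74099254-74099282: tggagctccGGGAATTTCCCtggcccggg
CXCL3, chr4:74038749-74038777: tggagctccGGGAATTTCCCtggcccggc
CXCL5, chr4:73998749-73998777: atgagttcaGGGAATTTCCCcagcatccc
CXCL6, chr4:73836579-73836607: ctgagttcaGGGAATTTCCCcagcatccc

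The other promoters with an NF-kB match and no listed region over the site were those of CXCL10, CCL20, IL6, VCAM1, NFKB1, REL, NFKBIA, NFKBIZ, TNFAIP3 and BIRC3. A match is a description of letters, and its absence says nothing about binding of the factor.

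The chemokines, small proteins that attract leukocytes, were the largest class (12 of 42 genes) and held the largest number of regions. The CXCL cluster on chromosome 4 encodes ligands of the neutrophil chemokine receptors, and its 6 members CXCL8, CXCL6, CXCL1, CXCL5, CXCL3 and CXCL2 have their 5′ ends within 359 kb. It had 9 gained regions within 100 kb, covering 12.9 kb, and no lost region. The nearest lost region was 1740 kb from CXCL2 and 2100 kb from CXCL8.

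At CXCL8, which encodes interleukin-8, a gained region of 204 bp began 30 bp downstream of the GENCODE 5′ end (chr4:73740549-73740752) and covered the RefSeq start. A further pair of abutting gained regions lay 34.4 kb and 36.4 kb upstream (chr4:73704112-73706111 and chr4:73702697-73704111). At the other end of the cluster, a gained region of 1018 bp covered the 5′ end of CXCL2 (chr4:74098750-74099767). Upstream of CXCL2, 3 abutting gained regions started 8.51 kb from its 5′ end (chr4:74107705-74108781, chr4:74108782-74110781 and chr4:74110782-74113361), and another lay 57.9 kb upstream (chr4:74157127-74158641). These 4 regions are closer to the 5′ end of MTHFD2L, a mitochondrial folate enzyme gene, than to that of CXCL2. The last region of the cluster lay 17.7 kb upstream of CXCL3 (chr4:74056542-74057583), between CXCL3 and CXCL2.

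The middle of the cluster was without listed regions. CXCL1 had none within 100 kb, its nearest gained region being 129 kb away. CXCL5 and CXCL6 were reached by 1 gained region each, at 57.9 kb and 95.9 kb, which were the regions assigned to CXCL3 and CXCL8. The 9 regions therefore sat toward the CXCL8 and CXCL2 ends of the cluster.

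The CCL2-CCL7 locus on chromosome 17 had the opposite sign. CCL2 encodes the main monocyte attractant of stellate cells, and its neighbour CCL7 a related monocyte chemokine. It had 2 abutting lost regions: chr17:34253785-34255779 covered the 5′ end of CCL2, and chr17:34251882-34253784 ended 1.49 kb upstream of it. Both also lay within 100 kb of CCL7, whose 5′ end was 14.4 kb from the nearer region. The nearest gained region was 725 kb from CCL2. The more distant lost region held 2 NF-kB matches, 2595 bp and 1710 bp upstream of the CCL2 5′ end, in a stretch where regulatory NF-kB elements of CCL2 are known. They are printed with flanks because this region and the CXCL2 promoter both hold the consensus and carry opposite calls.
CCL2 distal, chr17:34252665-34252694, plus strand: tcctcagagtGGGAATTTCCactcacttct
CCL2 proximal, chr17:34253550-34253579, plus strand: tctctgctctGGGATTCTCCaggaaaccaa

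**Figure D2:**
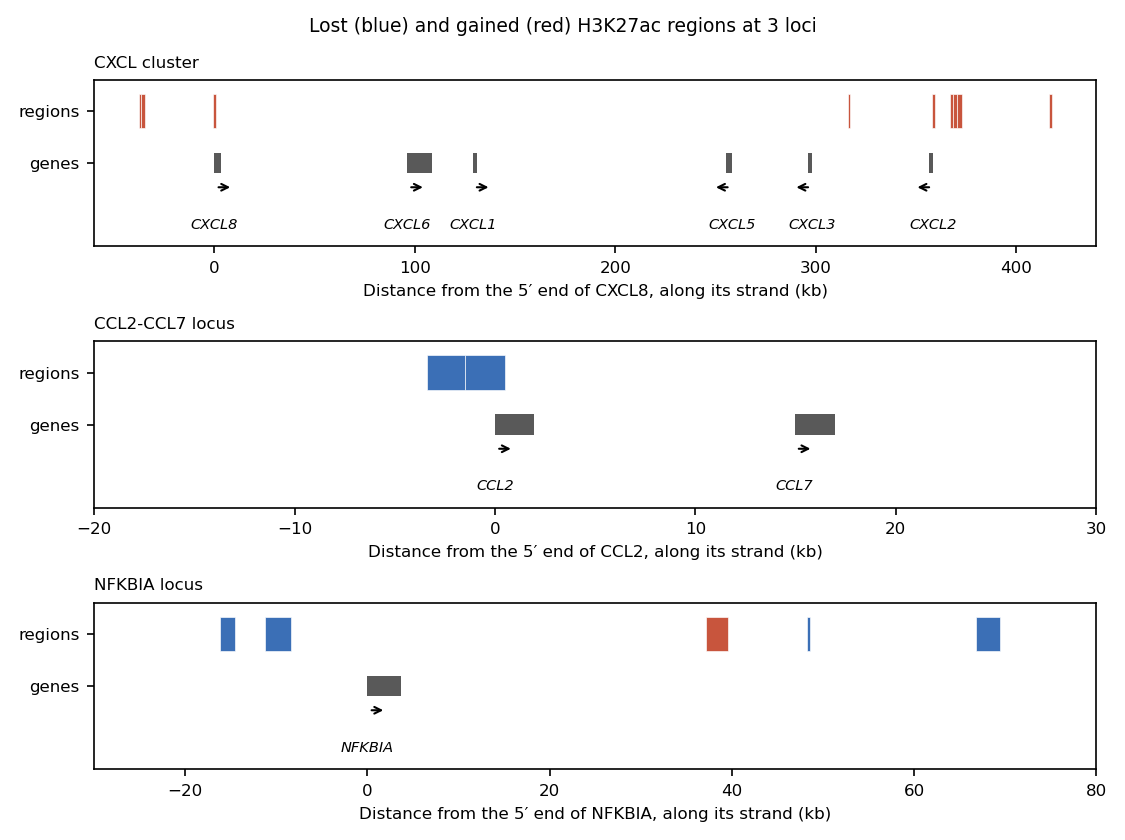
Gene bodies (grey, arrows in the direction of transcription) and listed regions (blue lost, red gained) are drawn against the distance in kb from the 5′ end of CXCL8, CCL2 or NFKBIA, with the narrowest boxes widened to stay visible. The CXCL cluster holds 9 gained regions toward its ends, the CCL2-CCL7 locus 2 abutting lost regions at CCL2, and the NFKBIA locus 4 lost regions and 1 gained region.

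Of the other chemokine genes, CCL20, which attracts T helper 17 cells and immature dendritic cells, had a gained region 11.8 kb downstream of its GENCODE 5′ end. That region lay 3.69 kb from the RefSeq start and 2166 bp from the nearest annotated transcript start, so the distance depends on the transcript used. CX3CL1, encoding the membrane-bound chemokine fractalkine, had 2 gained regions at 55.3 kb and 94.3 kb upstream, both closer to the 5′ end of PLLP. CXCL12, a chemokine that stromal cells make and that acts on CXCR4, had a lost region 84.4 kb downstream. CXCL10, an interferon-induced T cell attractant, had neither, and its nearest gained and lost regions lay 170 kb and 177 kb away. In all, 7 of 12 chemokine genes had a gained region within 100 kb (58.3%, against 29.5% of all protein-coding genes), of which 5 belong to the CXCL cluster and share regions. A lost region was near 3 of 12 (25%), close to the 20.4% of all protein-coding genes.

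The interleukin-6 family split by gene. IL11, a cytokine that acts on fibroblasts and is tied to fibrosis, had a lost region of 2384 bp over its 5′ end, reaching into the gene (chr19:55368829-55371212). Its nearest gained region was 110 kb away. LIF, leukaemia inhibitory factor, had 2 lost regions downstream of its 5′ end, at 8.9 kb (chr22:30235133-30237858) and 17.1 kb (chr22:30228024-30229669), with the nearer 2.6 kb beyond the end of the gene. IL6 had 3 gained regions and no lost region within 100 kb, the nearest lost region being 3120 kb away. The nearest gained region was 7.04 kb upstream, in an intron of STEAP1B (chr7:22717700-22718842), and another lay 61.6 kb upstream (chr7:22662425-22664313). The region at 96.4 kb downstream (chr7:22822324-22822837) began 12 bp from the 5′ end of TOMM7, a mitochondrial import gene. The IL6 promoter itself, which holds an NF-kB match, overlapped no listed region.

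In the interleukin-1 family, 3 of 4 genes had a gained region within 100 kb (75%, against 29.5% of all protein-coding genes) and none had a lost region. The count rests largely on the IL1A-IL1B locus. IL1A and IL1B, neighbours on chromosome 2 that encode interleukin-1 alpha and beta, shared 2 gained regions. The first (chr2:112793138-112795196) lay 8.64 kb upstream of IL1A, and the second (chr2:112811407-112812852) lay between the genes, 24 kb downstream of the IL1B 5′ end. IL1B had a further region at 99.4 kb upstream (chr2:112936183-112936976), closer to IL37. IL18 had 1 gained region at 76.8 kb, which covered the start sites of SDHD and TIMM8B, genes of mitochondrial respiration and protein import. IL33, an alarmin stored in the nucleus, had no listed region within 100 kb, with the nearest gained region 350 kb and the nearest lost region 371 kb away.

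Among the other cytokines, the colony-stimulating factor genes had gained regions. CSF3, granulocyte colony-stimulating factor, had 4 covering 7.46 kb. The first lay 4.98 kb downstream of its 5′ end in an intron of MED24 (chr17:40020340-40022866), and the other 3 lay between 82.3 kb and 97.9 kb at the NR1D1 and MSL1 genes (chr17:40097708-40098996, chr17:40098997-40101651 and chr17:40113244-40114232). CSF2, which encodes the granulocyte-macrophage factor, had 1 gained region at 20.2 kb downstream. CSF1, the macrophage growth factor, had 2 abutting regions from 66.8 kb, nearer to AHCYL1. TNF, tumour necrosis factor, had gained regions at 13.5 kb (chr6:31560619-31562061) and 32.8 kb upstream (chr6:31540999-31542794), in the gene-dense major histocompatibility region where the latter covers the start of DDX39B. IL15, a growth factor of natural killer and memory T cells, had 1 lost region at 65.9 kb upstream. TSLP, an epithelial and stromal alarmin, had none within 100 kb. By count, 4 of 6 had a gained region within 100 kb (66.7%, against 29.5% of all protein-coding genes) and 1 a lost region (16.7%, against 20.4%). The regions of TNF and CSF1 are nearer to the 5′ ends of other genes.

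**Figure D3:**
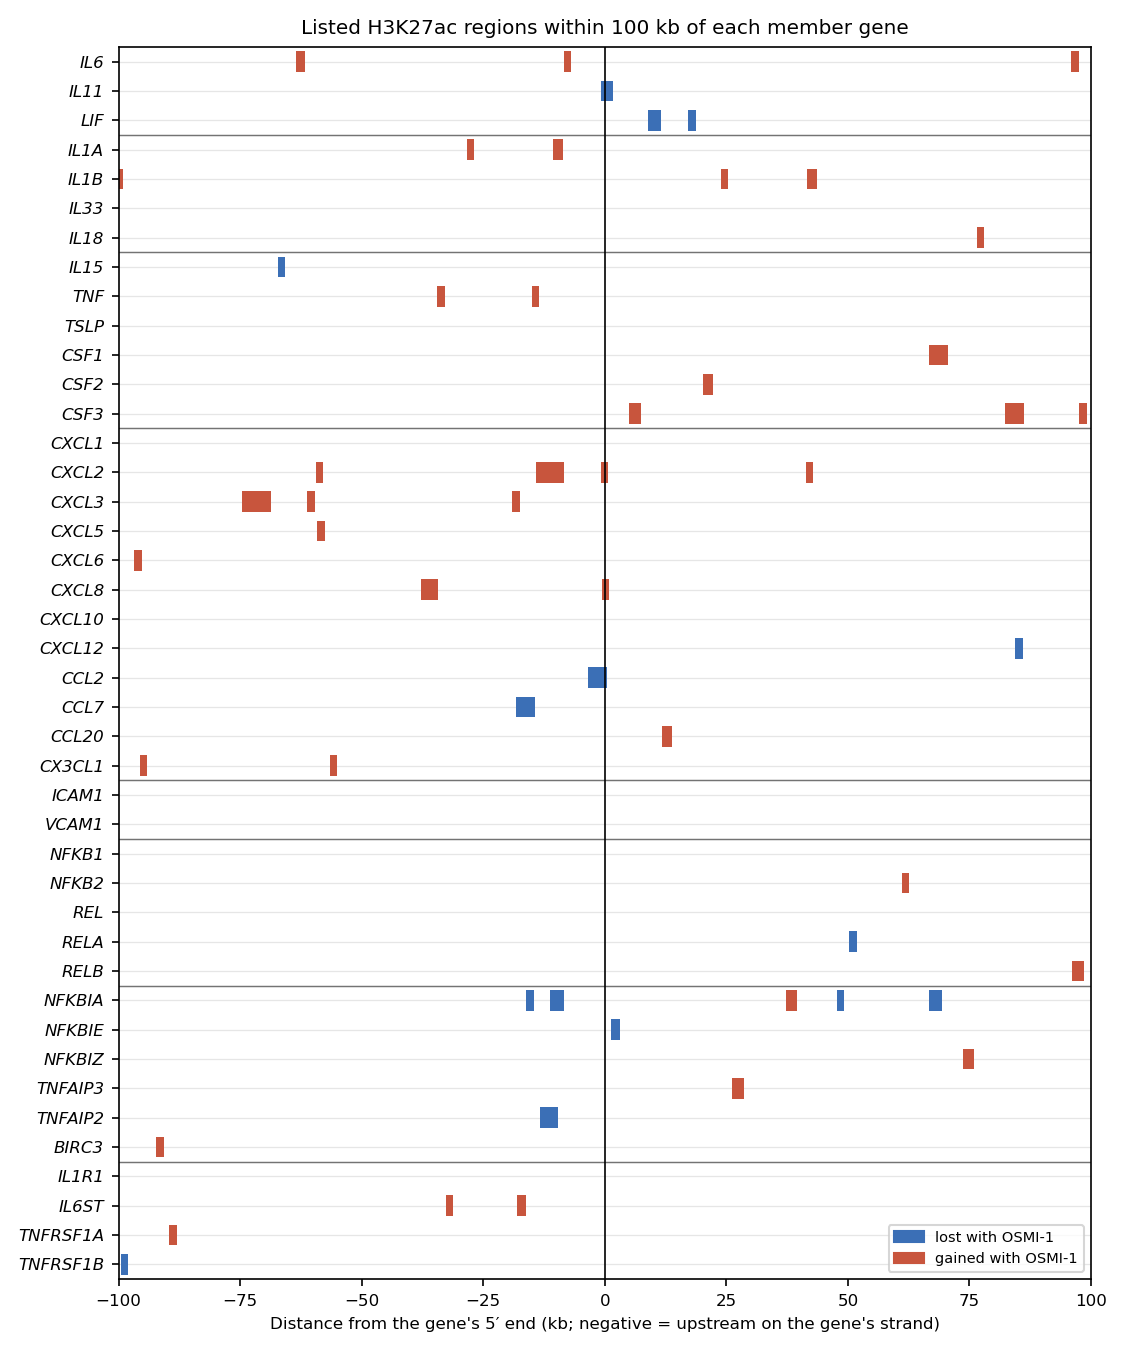
Each row is a member gene, grouped by role, and each box is a listed region (blue lost, red gained) at its distance in kb from the 5′ end, negative upstream, with boxes drawn at least 1.5 kb wide. A gained region alone is near 22 genes, a lost region alone near 10, both near NFKBIA and neither near 9.

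All 6 genes grouped here as NF-kB inhibitors and feedback genes had a listed region within 100 kb, in mixed directions. Of all protein-coding genes, 43.4% had a region of either kind, as had 33 of the 42 members (78.6%). Within 50 kb the count was 4 of 6, without NFKBIZ and BIRC3, against 45.2% of the members and 28.3% of all protein-coding genes. Of 7 further inhibitor genes among the other pathway genes below, 2 had a lost and 2 a gained region within 100 kb. These shares were 28.6% each, against 20.4% and 29.5% of all protein-coding genes. NFKBIA encodes IkB alpha, the inhibitor that NF-kB itself induces to end the response, and it was the member with both kinds of region. It had 4 lost regions covering 7.37 kb. A pair lay upstream, at 8.44 kb (chr14:35413187-35416021) and 14.6 kb (chr14:35419315-35420906), and another pair downstream, at 48.3 kb (chr14:35356167-35356498) and 66.8 kb (chr14:35335373-35337982). A gained region of 2452 bp lay 37.2 kb downstream (chr14:35365120-35367571), between the gene and the downstream pair. The NFKBIA promoter, with its NF-kB match 72 bases upstream of the RefSeq start, was in neither list.

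NFKBIE encodes IkB epsilon, a slower feedback inhibitor. A lost region of 1829 bp began 1.34 kb downstream of its 5′ end, in an intron (chr6:44262622-44264450), and held 3 NF-kB matches. They are shown because the region lies within 2500 bp of the 5′ end, and are written on the gene's strand (minus), at 2193 bp, 2405 bp and 2760 bp downstream of the 5′ end.
NFKBIE first, chr6:44263581-44263610: ccctggcctaGGGGATTTCCagagcagttc
NFKBIE second, chr6:44263369-44263398: acctgacgtgGGGAAACCCCaagactggaa
NFKBIE further, chr6:44263014-44263043: gcttagccctGGAAACCCCCtctggactac

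The lost region over IL11 held 5 such sites, from 668 bp upstream to 970 bp downstream of the 5′ end, and is rich in G and C (70.5%). The CXCL8 start region held none in its 204 bp. The IL11 sites follow on the gene's strand (minus), ordered from upstream to downstream.
IL11 upstream site, chr19:55371117-55371146: ctttcccctcGGGGTCTCCCtgggtctccc
IL11 at 71 bp, chr19:55370378-55370407: gctgaccctcGGGGCTCCCCcggcagcgga
IL11 at 133 bp, chr19:55370316-55370345: cccctgccctGGGGAACCCCtggccctgtg
IL11 at 514 bp, chr19:55369935-55369963: gcggggaccGGGAGACTCCCtgggattcc
IL11 at 970 bp, chr19:55369479-55369508: gggcgtctaaGGGGTCTCCCgtgggagagg

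TNFAIP2, a gene induced by tumour necrosis factor, was grouped here with the inhibitors and feedback genes. It had 2 abutting lost regions at 9.68 kb and 11.7 kb upstream (chr14:103109790-103111800 and chr14:103108238-103109789). The further genes of this class had gained regions at larger distances. TNFAIP3, the ubiquitin-editing enzyme A20 that shuts off the pathway, had 1 at 26.1 kb downstream. NFKBIZ, which encodes the nuclear cofactor IkB zeta, had 1 at 73.7 kb, and BIRC3, a ubiquitin ligase of the TNF receptor complex, had 1 at 90.7 kb, inside an intron of YAP1.

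Of the 5 NF-kB subunit genes, 1 had a lost region within 100 kb (20%, against 20.4% of all protein-coding genes). A gained region was near 2 of the 5 (40%, against 29.5%), and none had a region within 2500 bp. NFKB1 (p105/p50) and REL had none within 100 kb, with nearest regions at 324 kb and 655 kb. RELA, the p65 subunit, had a lost region at 50.2 kb downstream, in an exon of MAP3K11. NFKB2 and RELB, of the non-canonical pathway, had 1 gained region each, at 61.2 kb and 96 kb, and each was nearer to another gene (C10orf95 and PPP1R37).

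Of the receptors, IL6ST, the gp130 signalling subunit shared by interleukin-6, interleukin-11 and LIF, had 2 gained regions at 16.2 kb and 31.3 kb upstream. TNFRSF1A, the main TNF receptor, had a gained region at 87.9 kb, nearer to CD27. TNFRSF1B, the second TNF receptor, had a lost region at 98.3 kb in an intron of TNFRSF8. IL1R1, the interleukin-1 receptor, had none, and neither had the adhesion genes ICAM1 and VCAM1, which let leukocytes bind to activated cells. The VCAM1 and ICAM1 5′ ends were 121 kb and 151 kb from the nearest gained region.

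**Figure D4:**
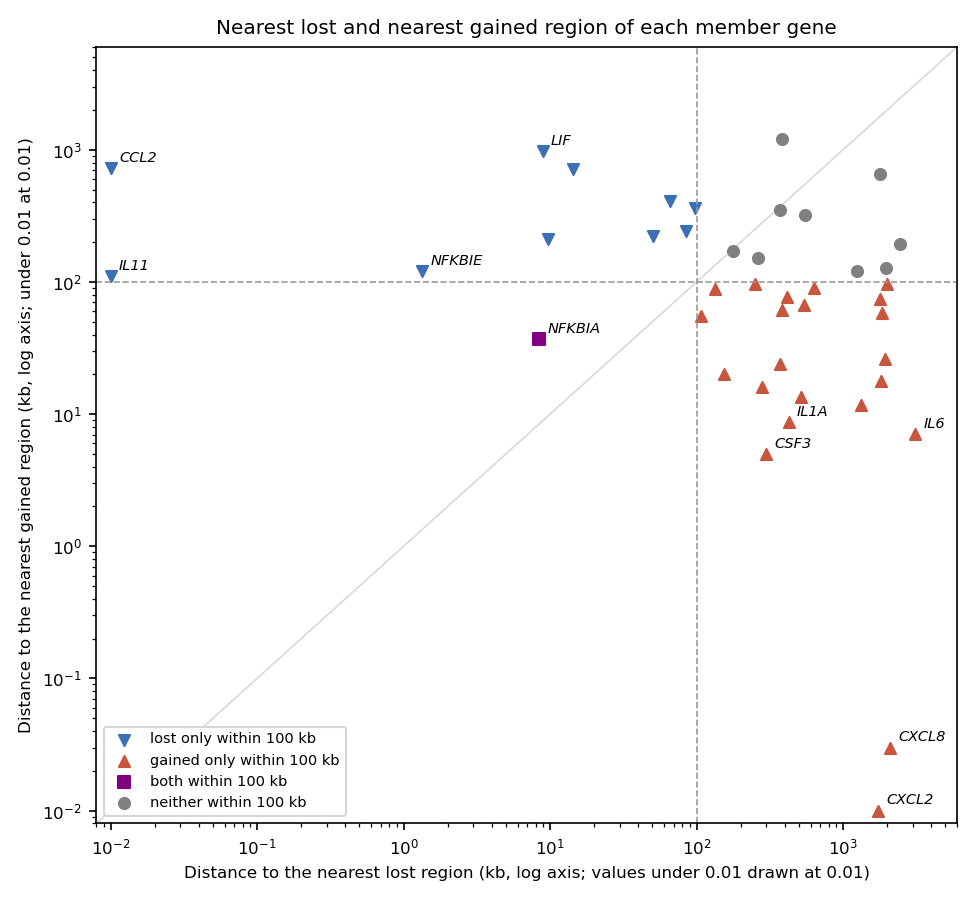
Each point is a member gene at the distance in kb from its 5′ end to the nearest lost region (horizontal) and to the nearest gained region (vertical), on log axes, with distances under 0.01 kb drawn at 0.01 and dashed lines at 100 kb. CCL2 and IL11 sit at the left edge, CXCL2 and CXCL8 at the bottom, and NFKBIA alone in the lower left quadrant, at 8.44 kb and 37.2 kb.

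The directions near each member were counted within 100 kb. A lost region alone was near 10 genes (23.8%, against 13.9% of protein-coding genes), a gained region alone near 22 (52.4%, against 22.9%), both near 1 (2.38%, against 6.55%) and neither near 9 (21.4%, against 56.6%). The count with both depends on the window: within 200 kb it was 7 (16.7%), near the 17.7% of all protein-coding genes. Since neighbouring genes share regions, these genes are not independent of each other.

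Many of the distal regions lay nearer to another gene. The 5′ end nearest to the region was that of a member for 13 of the 16 lost regions (81.2%) and for 18 of the 37 gained regions (48.6%). Counting a region for the gene with the nearest protein-coding 5′ end, a rule chosen after seeing the data, left 8 members with a lost region (19%, against 7.77% of all protein-coding genes) and 14 with a gained region (33.3%, against 11%). The genes with a region in the 100 kb window but none by the nearest-gene rule were CCL7, RELA and TNFRSF1B on the lost side and CXCL5, CXCL6, IL18, TNF, CSF1, CX3CL1, NFKB2, RELB and TNFRSF1A on the gained side.

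The lost regions covered 29.1 kb (median width 1804 bp) and the gained regions 60.4 kb (1698 bp). Of the lost regions, 5 of 16 (31.2%) lay within 2500 bp of a protein-coding 5′ end of any gene, against 11.3% of all lost regions. For the gained regions the share was 8 of 37 (21.6%), against 31% of all gained regions. The numbers are small: 4 of these 5 lost regions were those at CCL2, IL11 and NFKBIE, and 2 of the 8 gained regions were those at CXCL2 and CXCL8, the others lying at start sites of genes that are not members.

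The regions near members were searched on both strands for 7 consensus motifs, whose matches may share bases. NF-kB matches were present in 6 of 16 lost (37.5%, Wilson 95% interval 18.5 to 61.4) and 10 of 37 gained regions (27%, 15.4 to 43), against 24.8% and 20.4% of all lost and gained regions. AP-1 (TGANTCA) was found in 12 of 16 lost regions (75%, 50.5 to 89.8) and 25 of 37 gained regions (67.6%, 51.5 to 80.4). Over the full lists it was in 56.5% and 53.6%. The TEAD core CATTCC was in 9 of 16 lost (56.2%, 33.2 to 76.9) and 27 of 37 gained regions (73%, 57 to 84.6), while over the full lists it was in 73.5% and 58.8%. The C/EBP consensus TTGCNNAA was in 5 of 16 (31.2%, 14.2 to 55.6) and 24 of 37 (64.9%, 48.8 to 78.2). The full lists held it in 55.2% and 52.4%. The composite ATF4-C/EBP consensus TGATGCAA was in 1 of 16 lost regions, 66.8 kb from the NFKBIA 5′ end and nearer to PSMA6. It was in 7 of 37 gained regions (18.9%, 9.48 to 34.2, against 10.1% of all gained regions). These 7 lay 8.64 kb from IL1A, 11.8 kb from CCL20, 17.7 kb from CXCL3, 61.2 kb from NFKB2, 61.6 kb from IL6, 66.8 kb from CSF1 and 90.7 kb from BIRC3. Those of NFKB2 and CSF1 were nearer to other genes. STAT (TTCNNNGAA) and IRF matches lay in 50% and 25% of the 16 lost regions (43.3% and 22.6% of all lost regions) and in 51.4% and 21.6% of the 37 gained regions (40.3% and 24.6% of all gained regions). The intervals cover counting error only, and they take abutting regions as separate, as at CXCL2, CCL2 and TNFAIP2. The full lists include the regions near members.

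The other genes of the pathway were counted from a list of 70 symbols for toll-like receptors, kinases and adaptors, inhibitors, cytokine receptors and further chemokine genes. A lost region lay within 2500 bp of 2 (2.86%) and a gained region within 2500 bp of 4 (5.71%). Within 100 kb the counts were 16 (22.9%) and 23 (32.9%), near the shares of all protein-coding genes. The gained promoters were those of TLR4, the endotoxin receptor, of IKBKB and IKBKG, the beta and gamma subunits of the IkB kinase, and of CYLD, a deubiquitinase that restrains it, each with a region over the 5′ end. The lost regions were over the 5′ end of BCL3, an atypical IkB protein, and 2.17 kb from that of ACKR3, a scavenging receptor for CXCL12, which had 9 lost regions within 100 kb and no gained region.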

How the data were processed

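H3K27ac was measured in LX-2 cells in 4 vehicle and 4 OSMI-1 libraries, and the other 8 libraries (inputs and CoP-seq) were not analysed directly. According to the methods, the authors aligned reads to hg38 with Chromap, called peaks against input DNA with MACS2 (2.1.1.20160309), removed duplicates and blacklisted regions, and compared all 8 libraries with MAnorm2. The 2 deposited lists hold 3 columns each (chromosome, start, end), in base positions of hg38. Their names give an adjusted p of 0.15 and the methods text 0.05, so the threshold behind a call is not certain. Starts were converted to count from 1.

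GENCODE 44 genes, hg38 sequence and RefSeq promoters were read with Python 3.11.15, pandas 2.3.3 and pysam 0.24.0. The counting was tested on simulated data. Distances run from the gene's 5′ end to the nearest base of a region. The background was all protein-coding genes. No test was made, since no values per library were given. The members, the 70 other genes and the motifs were chosen with earlier results of these data known. Every member is accounted for. Coordinates were given for genes with a region within 2500 bp and for the 10 loci with most regions within 100 kb, other pathway genes were named where a region lay within 2500 bp, and NF-kB sites (overlapping matches joined) were printed from regions within 2500 bp of a member. Alternatives were windows of 1000 bp, 5000 bp, 50 kb and 200 kb, all transcript 5′ ends, region centres, regions merged within 1000 bp, the nearest gene and motifs in the central 1000 bp.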

Additional observations from a re-analysis of the deposited data

How the results depend on the processing

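Of 34 alternative values for the counts of genes and regions, 28 stayed within 1.5 times the reported value. In a window of 50 kb, 7 members had a lost region (16.7%, against 11.7% of all protein-coding genes) and 13 a gained region (31%, against 18.7%), with 20 gained regions in all. At 200 kb there were 25 lost regions, and 15 members had a lost region (35.7%, against 34.3%) and 30 a gained region (71.4%, against 45.6%). With the nearest-gene rule, chosen after seeing the data, 14 members had a gained region and 18 gained regions remained. The alternatives only add, remove or join regions near a gene. None of them could therefore turn a member from lost alone to gained alone or back. At 200 kb 7 members had both. With all transcript 5′ ends, CCL20 joined CXCL2 and CXCL8, which gave 3 members with a gained region within 2500 bp. The share of all protein-coding genes was not counted under that rule. In the central 1000 bp, NF-kB matches lay in 31.2% of lost and 18.9% of gained regions near members, against 15% and 14% of the full lists. AP-1 matches lay there in 43.8% and 51.4%, against 42% and 41.9%, so little of the difference in lost regions remained. The TEAD core was in 37.5% and 56.8%, against 57.3% and 42.9%, and C/EBP in 18.8% and 43.2%, against 37.2% and 35.5%. ATF4-C/EBP was in 0% and 18.9%, against 2.08% and 7.4%. STAT was in 43.8% and 40.5%, against 28.3% and 25.5%, and IRF in 18.8% and 13.5%, against 13.3% and 14.9%. No paired analysis was possible because values per library were not given, which also leaves no way to leave out a replicate, to use a stricter threshold, or to say how deep the coverage behind a call was.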
